A study of Mus musculus with 4 samples.

Results

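The genes described here encode the machinery with which a cell makes cholesterol and fatty acids. They were measured in pituitary gonadotropes of control mice and of mice with a conditional knockout of Gata2, the gene for a zinc-finger transcription factor. The lipid genes were chosen by name: 18 enzymes of cholesterol synthesis, 6 genes that control the sterol regulatory element-binding proteins (SREBPs) and 6 enzymes of fatty acid synthesis. All 30 were found among the 54532 genes of the deposited table and all 30 passed the filter on low counts. Gonadotropes are the pituitary cells that secrete luteinizing hormone and follicle-stimulating hormone. They were sorted by flow cytometry from male mice of mixed strain aged 10 to 12 weeks, which were either controls or carried a conditional Gata2 knockout (cKO). Each genotype had 2 mRNA libraries. The series title calls the knockout gonadotrope-specific, and the design text speaks of pituitaries where the sample labels say sorted gonadotropes. The sources used here name no Cre line and no control alleles, and do not say whether animals were pooled. No label ties a library to its own animal. The p-values therefore reflect only how far these libraries scatter, and that scatter may be technical.

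Cholesterol is built from acetyl-CoA through mevalonate and isoprenoid diphosphates to squalene, which is closed into lanosterol and then trimmed to cholesterol. Fatty acids share the same acetyl-CoA: it is carboxylated, polymerised to palmitate, and then lengthened and desaturated. SREBP2 mainly drives transcription of the sterol genes and SREBP1 that of the fatty acid genes. Both are held in the endoplasmic reticulum by SCAP and the INSIG proteins while sterol is plentiful, and are released for cleavage in the Golgi when it runs low. In an endocrine cell these lipids supply the membranes of the secretory pathway.

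The control libraries held 10646909 and 21135301 estimated counts and the cKO libraries 15541553 and 18362182, and values are given in that order throughout. Gata2 stood at 537 and 526 counts per 1000000 (CPM, scaled between libraries by TMM factors) in the controls and at 221 and 214 CPM in cKO. The log2 fold change, cKO minus control as for every value below, was -1.29 (SE 0.14), with an adjusted p of 0.0473 by edgeR. The count covers the whole gene, so any exons left undeleted would be included, and the source of the remaining Gata2 counts was not tested. Gonadotrope markers (Fshb, Lhb, Cga, Gnrhr, Nr5a1 and Tgfbr3l) summed to 13668 to 15094 CPM in controls and 6684 to 7982 CPM in cKO. The hormone genes Fshb, Lhb and Cga made up most of these sums. These and Gnrhr, 4 of 6, were lower in both cKO libraries, beside 19.3% of all genes tested. Tgfbr3l and Nr5a1 overlapped, with Nr5a1 at 277 and 397 CPM in controls and 275 and 372 CPM in cKO. Among the 6 only Fshb had an adjusted p under 0.05 by edgeR (0.0381). Across genes, the log2 levels of the control pair correlated at a Pearson's r of 0.889 and those of the cKO pair at 0.902. Control replicate 1 was farthest from the rest, at 0.841 and 0.854 against cKO, while control replicate 2 correlated with the cKO libraries at 0.917 and 0.928. The libraries thus did not group by genotype on this measure.

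In the cKO gonadotropes no gene of either arm of lipid synthesis was called by edgeR, and the arms were not tested as groups. With edgeR's quasi-likelihood test adjusted over all 17349 genes, 0 of 30 members passed the threshold of 0.05, where 0.0576% of all genes tested did. At an unadjusted p under 0.05 there were 2 members, Insig1 and Acly, both higher, against 7.04% of all genes tested (3.15% higher and 3.88% lower). The newer form of edgeR's test and limma-voom also called 0 of 30 (0.271% and 1.48% of all genes tested), while DESeq2 called Insig1 and Acly, against 4.84% of the genes it gave an adjusted p. Of the 18 cholesterol enzymes 9 had a higher and 9 a lower estimate, with a median log2 fold change of 0.02 and a range from -0.98 to 1.30. Of the 6 fatty acid enzymes 3 were higher and 3 lower, with a median of -0.01 and a range from -0.45 to 0.48. Of the 6 control genes 4 were higher and 2 lower, with a median of 0.07. The median over all genes tested was 0.03, and the sterol median exceeded the fatty acid median by 0.03. Scaling by upper-quartile factors or library size alone, like the newer edgeR test and limma-voom, put the sterol median just below 0, and leaving out libraries moved both arms across 0, so no direction was read from them.

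**Figure D1:**
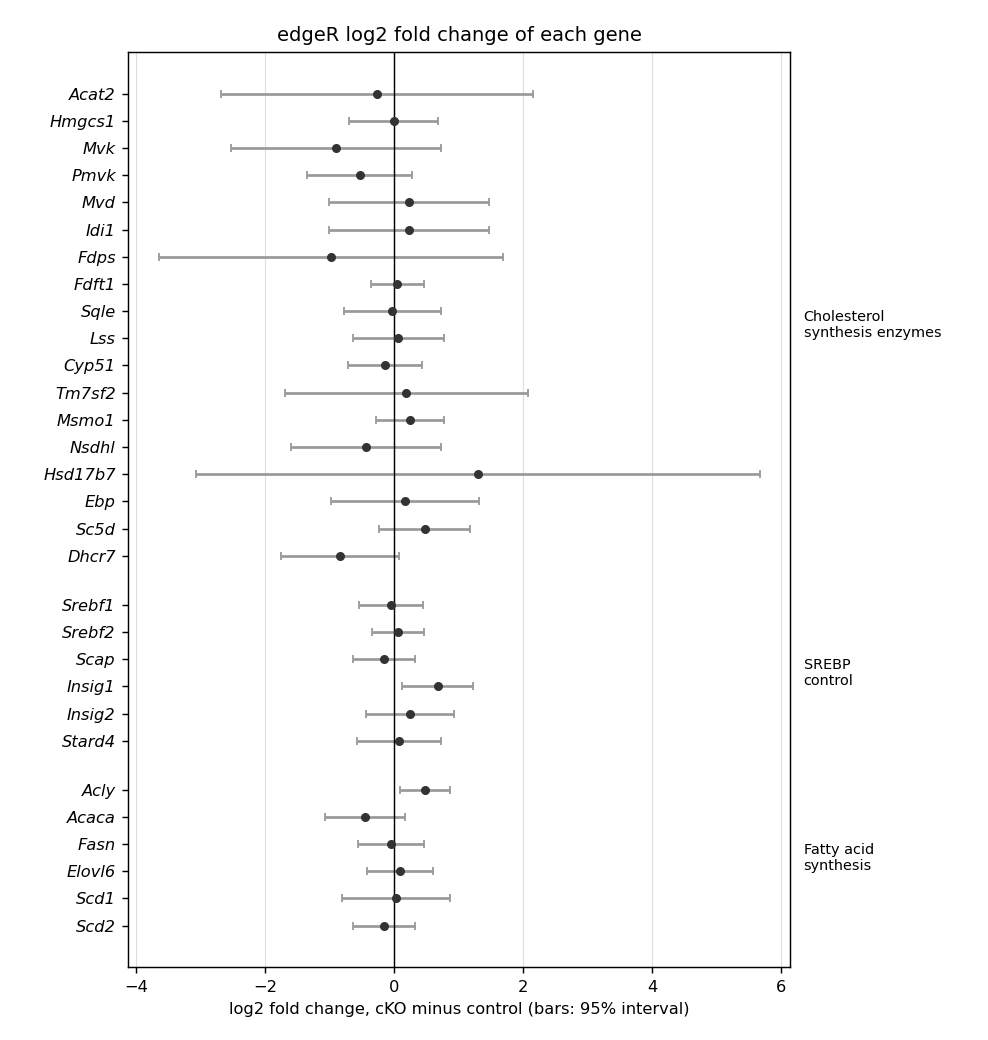
Log2 fold change (cKO minus control, x axis) of each of the 30 genes, with the 95% interval of edgeR's quasi-likelihood fit as bars (2 libraries per group). Points scatter on both sides of 0 in each gene group, and the intervals of Insig1 and Acly alone leave out 0.

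Both cKO libraries lay above both controls for 5 members and below both for 5. Over all genes tested these shares were 19.7% and 19.3%. The members above were Msmo1, Sc5d, Insig1, Insig2 and Acly, and those below were Pmvk, Cyp51, Nsdhl, Dhcr7 and Acaca. The 5 of 30 in each direction are thus close to the background. For 22 of 30 members the wider gap between replicates exceeded the difference between the group means on the log2 scale, as it did for 74.3% of all genes tested.

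The promoters of the sterol genes share features that were not used to choose them. RefSeq promoter sequences (GRCm38.p6, the build called mm10) were matched by symbol for 24 members. The other members, Fdps, Fdft1, Sqle, Stard4, Scd1 and Scd2, are named only. The 250 bases upstream of each start were searched on both strands for 4 motifs. CCAAT, the box bound by NF-Y, a factor known to act together with SREBPs, was found for 14 of 15 sterol enzymes, 4 of 5 control genes and 1 of 4 fatty acid enzymes, against 37.5% of all genes with a promoter entry. The GC box GGGCGG, bound by Sp1, was found for 14 of 15, 5 of 5 and 1 of 4, against 35.4% of all genes. The E-box CACGTG was found for 5 members and 6.86% of all genes. The sterol regulatory element written as TCACNCCAC was found for Hmgcs1 alone, against 1.22% of all genes. The shares of all genes cover 27025 genes with a promoter entry, tested here or not, and were not matched for expression or base content. A gene counted if any of its windows matched. A match is a description of the letters in this window, and the elements of other members may be spelled differently. The median log2 fold change was 0.06 for the 19 members with a CCAAT box and -0.16 for the 5 without, 0.11 for the 20 with a GC box and -0.25 for the 4 without, and 0.47 for the 5 with an E-box and 0.06 for the 19 without. Members with a box ranged from -0.90 to 1.30 for CCAAT and GC and from -0.84 to 1.30 for the E-box, so the ranges with and without each box overlapped. The 3 members with the smallest p are shown because the comparison comes closest to a difference there, and Hmgcs1 because it holds the element. Each line gives 150 bases that end before the gene start of both annotations, 5′ to 3′ on the gene's strand, with matches to any of the 4 motifs on either strand in capitals.
Insig1, chr5:28071213-28071362, plus strand: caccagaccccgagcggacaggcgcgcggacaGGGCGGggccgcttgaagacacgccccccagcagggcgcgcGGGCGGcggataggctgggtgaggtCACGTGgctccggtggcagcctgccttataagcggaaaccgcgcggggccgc
Acly, chr11:100528001-100528150, minus strand: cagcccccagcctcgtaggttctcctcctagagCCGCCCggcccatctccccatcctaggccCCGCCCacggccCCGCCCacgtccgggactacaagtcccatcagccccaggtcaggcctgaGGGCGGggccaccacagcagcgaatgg
Dhcr7, chr7:143822995-143823144, plus strand: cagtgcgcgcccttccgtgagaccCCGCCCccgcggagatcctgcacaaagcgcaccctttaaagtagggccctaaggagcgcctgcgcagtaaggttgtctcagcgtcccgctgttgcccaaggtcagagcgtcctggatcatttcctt
Hmgcs1, chr13:119690201-119690350, plus strand: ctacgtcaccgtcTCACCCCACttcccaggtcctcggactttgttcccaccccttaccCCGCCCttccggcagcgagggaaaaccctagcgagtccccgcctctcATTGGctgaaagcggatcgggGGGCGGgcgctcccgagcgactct
Acly carries 4 GC boxes in this stretch and Insig1 carries 2 with an E-box. Hmgcs1 holds the sterol regulatory element, a CCAAT box in reverse and 2 GC boxes. The CCAAT boxes of Insig1 and Dhcr7 and the E-box of Dhcr7 lie outside the stretches shown.

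Levels between genes can be compared only per length, and are given here as CPM per kilobase of the union of annotated exons. This length includes exons of minor transcripts, so it understates genes such as Acaca (17074 exonic bases) and Fasn (10947) to an unequal degree. The fatty acid arm held the most abundant transcripts. Over the 4 libraries of both genotypes Fasn stood highest at 88.9 ± 17.6 CPM per kb (SD, n = 4), followed by Acly at 71.1 ± 15.1, Scd2 at 45.3 ± 7.75 and Fdft1 at 40.2 ± 3.44. Fasn overlapped Acly, Acly overlapped Scd2 and Scd2 overlapped Fdft1 in their library values. Compared within each library, Acly stood above Scd2 in every one. In cKO replicate 2 Acly stood above Fasn and Fdft1 above Scd2, so the order of those pairs is not fixed. Insig1 (30.2 ± 9.36), Srebf2 (28.3 ± 2.32) and Pmvk (27.6 ± 9.85) came next. Hsd17b7 was lowest at 1.10 ± 0.972 CPM per kb, below Fdps at 2.06 ± 1.90 and Acaca at 2.68 ± 0.50. Their library values overlapped, and Fdps was below Hsd17b7 in control replicate 2 and cKO replicate 2, so this order is not fixed either. Summed over its 18 enzymes the sterol arm gave 185 and 183 CPM per kb in controls and 177 and 171 in cKO. The sum over the 6 fatty acid enzymes was 182 and 252 in controls and 242 and 224 in cKO. The fatty acid sums overlapped between genotypes, with control replicate 1 lowest, whereas both cKO sterol sums lay below both control sums. Without the division by length the sterol sums overlapped, at 684 and 735 CPM in controls and 710 and 688 CPM in cKO.

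**Figure D2:**
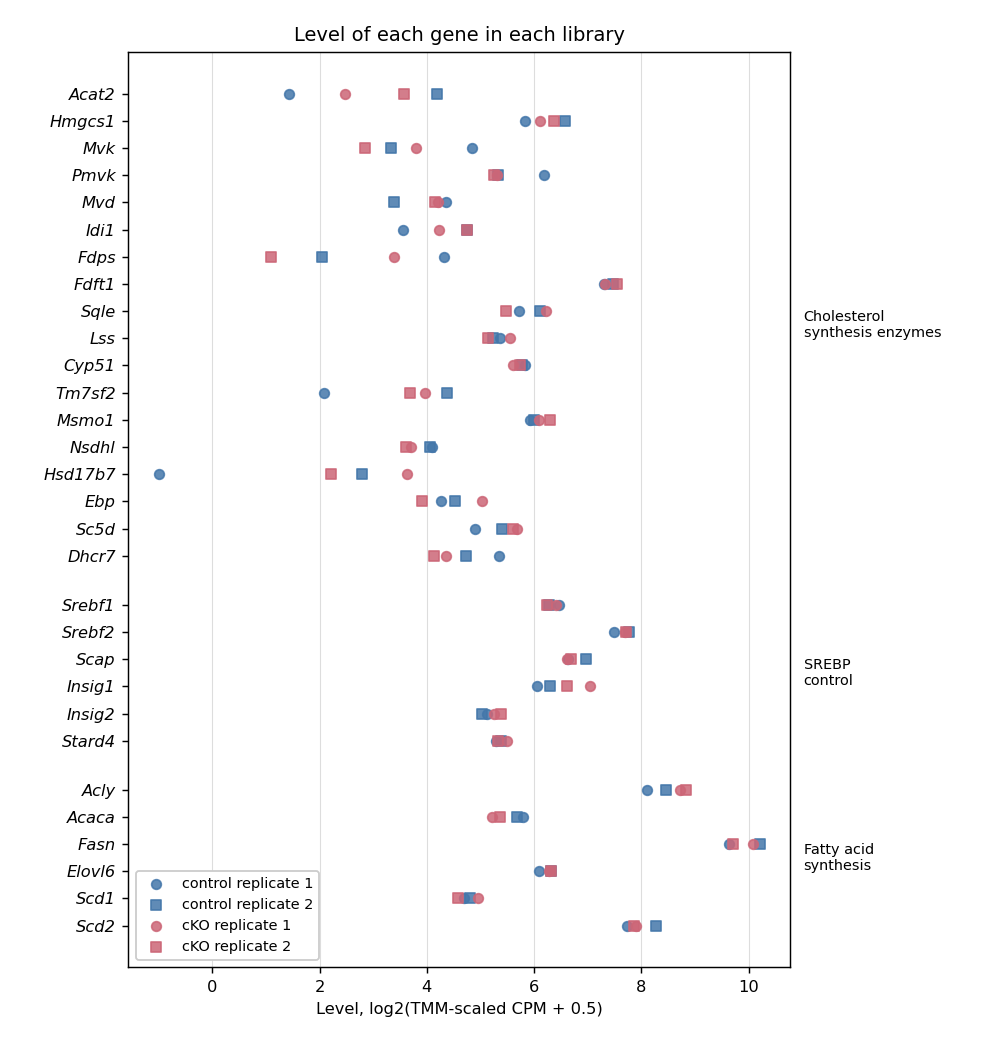
Level of each gene in each library, as log2 of TMM-scaled CPM plus 0.5 (x axis). Circles are replicate 1 and squares replicate 2 of each group. No SREBP control gene, fatty acid gene or sterol gene with a mean of 25 CPM or more has replicates more than 2-fold apart. Low sterol genes such as Acat2, Fdps, Tm7sf2 and Hsd17b7 spread widely within a genotype.

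Insig1 encodes the endoplasmic reticulum protein that retains SCAP when sterol is plentiful, and is itself a classic SREBP target. It (ENSMUSG00000045294.11, mm10 chromosome 5, 28071363 to 28078662) stood at 65.7 and 78.2 CPM in the controls and 132 and 97.8 CPM in the cKO libraries. Both cKO libraries were above both controls, and cKO replicate 1 was the highest. The mean went from 71.9 ± 8.86 to 115 ± 24.2 CPM (SD, n = 2 each), with a log2 fold change of 0.67 (SE 0.23, 95% interval 0.13 to 1.22). The edgeR unadjusted p was 0.0221 and the adjusted p 0.646, so the gene did not pass. Over the alternatives the adjusted p ranged from 0.0316 (DESeq2) to 1. Without cKO replicate 1 the estimate was 0.44. Its paralogue Insig2, which has the same retaining role and is not driven by SREBP in the same way, stood at 34.3 and 32.1 CPM in controls and 37.4 and 41.3 CPM in cKO. Insig2 was also higher in both cKO libraries, with an estimate of 0.24 (SE 0.29) that was 0.16 without cKO replicate 2. Per length Insig1 exceeded Insig2 by a factor of 2.15 and 2.73 in controls and 3.97 and 2.66 in cKO, so this ratio overlapped between genotypes.

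The genotypes overlapped for both SREBP genes. Srebf2, for the sterol-directed SREBP2, stood at 179 and 218 CPM in controls and 207 and 208 CPM in cKO. The estimate was 0.06 (SE 0.17), and the 95% interval allows a cKO level from 0.791 to 1.37 times the control. Srebf1, for SREBP1, stood at 87.8 and 77.0 CPM in controls and 84.4 and 75.4 CPM in cKO, with an interval of 0.687 to 1.37 times the control. Changes within these bounds are compatible with the fit, and how large a change 2 libraries per group could detect was not tested. Scap, for the escort protein that carries SREBPs to the Golgi, stood at 98.3 and 125 CPM in controls and 97.4 and 103 CPM in cKO (-0.16, SE 0.21). Stard4, for a soluble sterol carrier whose gene SREBP2 activates, stood at 38.8 and 41.4 CPM in controls and 44.6 and 39.8 CPM in cKO (0.07, SE 0.28). Insig1 thus stood higher in cKO while Stard4 and Srebf2, which are also SREBP targets, overlapped. Of the 18 sterol enzymes, whose genes SREBP2 mainly drives, 12 overlapped, 2 lay above both controls in both cKO libraries and 4 below. Over all genes tested 19.7% lay above and 19.3% below. The differences among these genes were not tested. Transcript levels do not show SREBP cleavage, which was not measured.

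In the fatty acid arm Acly and Acaca, which act in succession, had estimates in opposite directions. Acly encodes ATP citrate lyase, which makes cytosolic acetyl-CoA from citrate and so feeds sterol as well as fatty acid synthesis. It (ENSMUSG00000020917.17, mm10 chromosome 11, 100476353 to 100528000) stood at 275 and 351 CPM in controls and 419 and 456 CPM in cKO, with both cKO libraries highest. The mean went from 313 ± 53.4 to 437 ± 26.0 CPM (SD, n = 2 each), a log2 fold change of 0.48 (SE 0.17, 95% interval 0.09 to 0.87). The edgeR unadjusted p was 0.0223 and the adjusted p 0.647, so it did not pass, while DESeq2 gave an adjusted p of 0.0132 and limma-voom 0.0897. Without control replicate 1, the lowest library, the log2 fold change was 0.31, and over the alternatives the adjusted p ranged from 0.0132 to 1. Acaca encodes acetyl-CoA carboxylase 1, which commits acetyl-CoA to fatty acids. It stood at 54.7 and 50.9 CPM in controls and 36.4 and 40.9 CPM in cKO, so both cKO libraries were lower. The estimate of -0.45 (SE 0.26) did not pass, with an adjusted p of 0.837 by edgeR. A processed pseudogene, Gm5182, matched 6118 bases of Acaca at 99.2% identity and held 272 counts over all libraries beside 2960 for Acaca, so its count is uncertain to that extent.

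The other fatty acid enzymes overlapped between genotypes. Fasn, for fatty acid synthase, stood at 791 and 1188 CPM in controls and 1083 and 831 CPM in cKO. The estimate was -0.05 (SE 0.22). It supplied 39.7% and 43.0% of the summed CPM per kb of the 6 enzymes in controls and 40.9% and 33.9% in cKO. Elovl6, for the elongase that lengthens palmitate, stood at 67.3 and 79.4 CPM in controls and 77.1 and 79.2 CPM in cKO (0.09, SE 0.22). The stearoyl-CoA desaturases, which place a double bond in saturated chains, were both expressed. Scd2, the form prominent in mouse brain, stood at 213 and 309 CPM in controls and 237 and 231 CPM in cKO (-0.16, SE 0.20). Scd1, the main form of liver and fat, stood at 25.3 and 27.6 CPM in controls and 30.5 and 23.3 CPM in cKO (0.03, SE 0.35). Per length Scd2 exceeded Scd1 by a factor of 7.53 and 10.0 in controls and 6.96 and 8.86 in cKO. Their annotated transcripts match over 623 bases at 95.5% identity and some counts of both were not whole, so their split is uncertain. Markers of fat cells (Adipoq, Plin1, Cidec, Fabp4 and Lep) summed to 1.91 to 2.92 CPM in controls and 2.11 to 2.53 CPM in cKO, with none of the 5 apart between genotypes.

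Several marker lists of other cells and transcripts had summed levels that did not overlap between the genotypes. No single marker in the lists below passed the threshold, and the smallest adjusted p by edgeR was 0.216, for mt-Nd1. Of all genes tested 19.7% lay above both controls in both cKO libraries and 19.3% below. All 13 mitochondrially encoded transcripts lay above both controls in both cKO libraries (summed 51846 to 60980 CPM in controls and 75778 to 90221 CPM in cKO). Lactotrope markers (Prl, Edil3, Gal, Drd2 and Agtr1b) did so for 4 of 5, with Agtr1b at 0 in every library, and summed to 358 to 629 CPM in controls and 1350 to 1365 CPM in cKO. Pituitary stem cell markers (Sox2, Sox9, S100b and Aldh1a2) did so for 2 of 4, with Aldh1a2 below both controls, and summed to 59.5 to 68.0 CPM in controls and 89.96 to 112 CPM in cKO. Markers of corticotropes and melanotropes summed to 7528 to 10201 CPM in controls and 6338 to 7507 CPM in cKO, with 1 of 5, Pomc, below both controls and the others overlapping. Thyrotrope markers summed to 68.7 to 77.2 CPM in controls and 92.3 to 136 CPM in cKO, with 2 of 3 above and Tshb below. Somatotrope sums overlapped at 1143 to 2395 CPM in controls and 399 to 2166 CPM in cKO (1 of 4 below). Each of the endothelial, leukocyte, fibroblast and erythroid lists stayed at or below 34.6 CPM in every library, with Emcn and C1qa at 0 throughout. The part of these cells in the values of Insig1, Acly or any other member was not tested. In such bulk libraries a change in the number of cells of a type and a change of RNA per cell cannot be told apart.

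The early steps of the sterol pathway, up to farnesyl diphosphate, included 5 of the 8 members whose replicates differed by more than 2-fold. Acat2, for the cytosolic thiolase that makes acetoacetyl-CoA, stood at 2.18 and 17.6 CPM in controls and 5.08 and 11.5 CPM in cKO. The 2 controls were thus 8.08-fold apart and enclosed both cKO libraries. Acat3 matches Acat2 over 1477 bases at 97.7% identity and held 142 counts beside 676.5, so the Acat2 count is uncertain. Hmgcs1, for the HMG-CoA synthase of the cytosol, stood at 56.6 and 94.5 CPM in controls and 68.2 and 82.7 CPM in cKO. The estimate was -0.0041 (SE 0.29), with the cKO values between the controls. Mvk, for mevalonate kinase, stood at 28.1 and 9.61 CPM in controls and 13.4 and 6.69 CPM in cKO. Its estimate of -0.90 had an SE of 0.69, and the groups overlapped.

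Pmvk, for phosphomevalonate kinase, stood at 72.5 and 39.4 CPM in controls and 39.3 and 37.7 CPM in cKO. Both cKO libraries were lower, but control replicate 2 lay within 0.1 CPM of cKO replicate 1, and the estimate of -0.54 (SE 0.34) became -0.04 without control replicate 1. Mvd, for the decarboxylase that yields isopentenyl diphosphate, stood at 20.1 and 9.99 CPM in controls and 17.9 and 17.2 CPM in cKO (0.23, SE 0.53). Idi1, for the isomerase of that product, stood at 11.3 and 26.5 CPM in controls and 18.2 and 26.2 CPM in cKO (0.23, SE 0.53). A processed pseudogene, Gm13502, is identical to Idi1 over 684 bases and held 267 counts beside 1428 for Idi1, none of whose counts was whole. Fdps, for farnesyl diphosphate synthase, stood at 19.4 and 3.63 CPM in controls and 9.97 and 1.63 CPM in cKO. The libraries of each genotype differed more (5.33-fold and 6.12-fold) than the estimate between genotypes of -0.98 (SE 1.13). Fdps has 4 processed pseudogenes that match it over 605 to 1066 bases, and another annotated gene, Gm43738, covers 26.7% of its exonic length on the same strand, so its count may be incomplete.

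The middle steps, from farnesyl diphosphate to lanosterol, had replicates within 1.69-fold of each other. Fdft1, for squalene synthase and the most abundant sterol enzyme, stood at 156 and 177 CPM in controls and 159 and 186 CPM in cKO. The estimate was 0.05 (SE 0.18), and the 95% interval allows a cKO level from 0.777 to 1.38 times the control. Its last exons overlap those of Ctsb on the opposite strand over 774 bases. Ctsb held 46715 counts against 11222 for Fdft1, and the strand setting is not known here, so some Fdft1 reads may belong to Ctsb or the reverse. Sqle, for squalene epoxidase, stood at 52.0 and 68.5 CPM in controls and 74.3 and 44.0 CPM in cKO (-0.03, SE 0.32), with the cKO libraries at both extremes. Lss, for lanosterol synthase, stood at 40.6 and 37.3 CPM in controls and 46.6 and 34.8 CPM in cKO (0.06, SE 0.30), again with cKO at both extremes.

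Of the 18 sterol enzymes 2 lay above both controls in both cKO libraries and 4 below, beside 19.7% and 19.3% of all genes tested. The trimming steps after lanosterol included 5 of these 6, which pointed both ways. Dhcr7, for the reductase that forms cholesterol from its dehydro precursor, came closest to a difference among the sterol enzymes. It (ENSMUSG00000058454.15, mm10 chromosome 7, 143823145 to 143848410) stood at 40.3 and 26.0 CPM in controls and 19.9 and 17.1 CPM in cKO. Both cKO libraries were lower, and the mean went from 33.1 ± 10.1 to 18.5 ± 1.97 CPM (SD, n = 2 each). Its log2 fold change was -0.84 (SE 0.39, 95% interval -1.76 to 0.08), with an unadjusted p of 0.0669 and an adjusted p of 0.729 by edgeR. Without control replicate 1 the estimate was -0.50.

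Sc5d, for the desaturase that acts just before Dhcr7 in that branch, stood at 29.5 and 41.6 CPM in controls and 50.6 and 48.1 CPM in cKO. Both cKO libraries were higher, with an estimate of 0.47 (SE 0.30) and an adjusted p of 0.880 by edgeR, the opposite direction to Dhcr7. Without control replicate 1 the Sc5d estimate was 0.24. Msmo1, for an oxidase of methyl removal, stood at 60.4 and 63.6 CPM in controls and 67.7 and 78.5 CPM in cKO. It was higher in both cKO libraries (0.24, SE 0.22), with an estimate of 0.12 without cKO replicate 2. Nsdhl, for the dehydrogenase that follows, stood at 16.6 and 16.2 CPM in controls and 12.5 and 11.7 CPM in cKO. The replicates lay within 1.03-fold of each other in controls and 1.06-fold in cKO, with the estimate at -0.44 (SE 0.50) and an adjusted p of 0.999 by edgeR. It kept its sign with any library left out, from -0.48 to -0.41. Cyp51, for the lanosterol demethylase, stood at 56.0 and 54.5 CPM in controls and 48.0 and 52.6 CPM in cKO. Both cKO libraries were lower, with an estimate of -0.14 (SE 0.24) that was -0.073 without cKO replicate 1, and reads could be shared with Akap9 on the opposite strand over 166 bases.

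Ebp, for the sterol isomerase, stood at 18.8 and 22.5 CPM in controls and 32.0 and 14.4 CPM in cKO (0.17, SE 0.49), with cKO at both extremes. Tm7sf2, for a sterol reductase that acts after Cyp51, stood at 3.73 and 20.3 CPM in controls and 15.1 and 12.4 CPM in cKO (0.19, SE 0.80). The cKO values lay between the controls. Vps51 shares 532 exonic bases with Tm7sf2 on the same strand and held 166 counts beside 920. Hsd17b7, for the ketoreductase that completes methyl removal, had 0 counts in control replicate 1, which allows up to 0.273 CPM (3 counts), and 135 counts or 6.45 CPM in control replicate 2. It stood at 11.9 and 4.16 CPM in cKO, so the genotypes overlapped, and its estimate of 1.30 had an SE of 1.86. Without control replicate 2 it was the 1 member past the threshold, where 3.5% of all genes tested passed, since its only control then had 0 counts. The floor takes in counting error alone, because PCR copies of a molecule were not told apart.

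**Figure D3:**
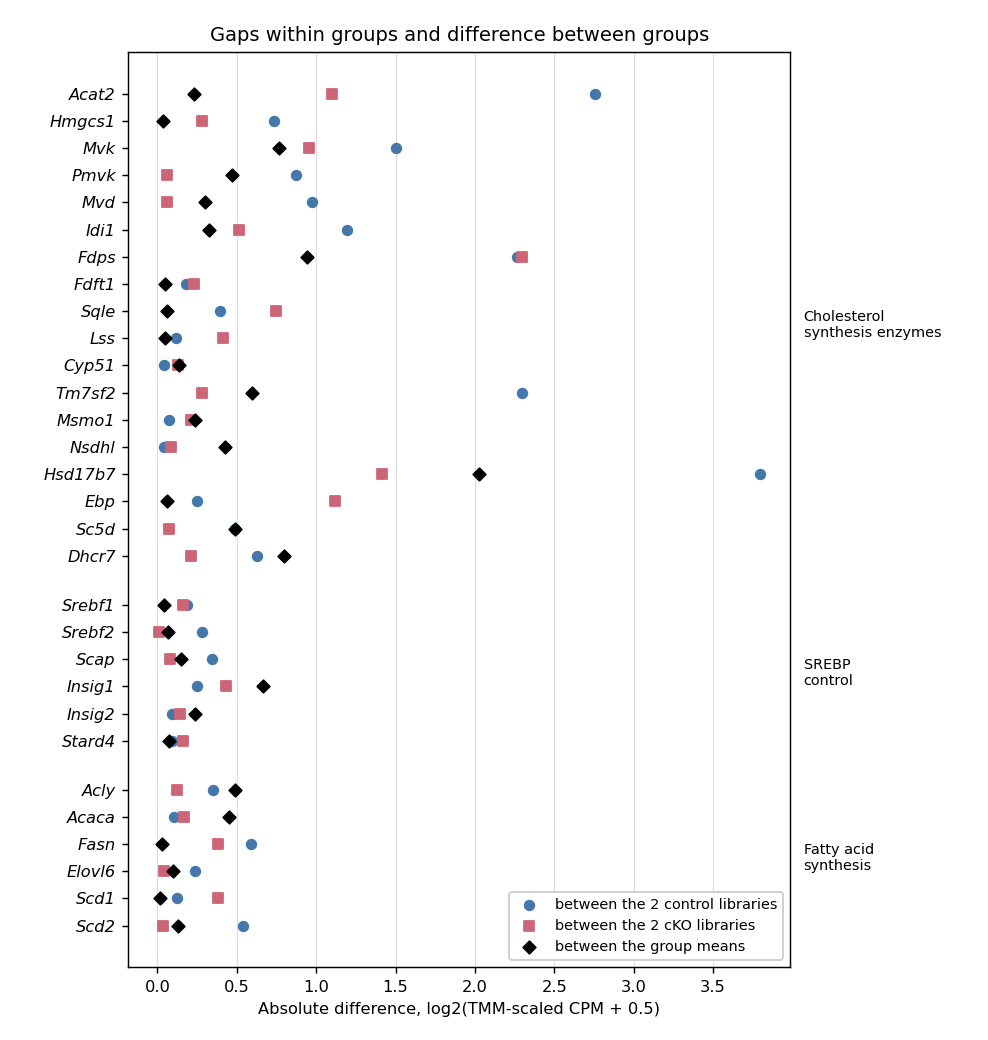
Absolute gap on the log2 scale (x axis) between the 2 control libraries (circles), between the 2 cKO libraries (squares) and between the group means (diamonds) for each gene. For most genes a replicate gap lies to the right of the diamond, and the widest control gaps are those of Hsd17b7, Acat2, Tm7sf2 and Fdps.

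Pooled over all levels, wide gaps between replicates were about as frequent among the sterol enzymes as among all genes. Under 25 CPM they were more frequent among the sterol enzymes. The control replicates differed by more than 2-fold for 7 of 18 sterol enzymes (38.9%, beside 35.8% of all genes tested), 0 of 6 control genes and 0 of 6 fatty acid enzymes. The cKO replicates did so for 5 of 18 (27.8%, beside 27.3%), 0 of 6 and 0 of 6, and the difference between the arms was not tested. The 8 enzymes that did so in either genotype were Acat2, Mvk, Mvd, Idi1, Fdps, Tm7sf2, Hsd17b7 and Ebp. All 8 were among the 9 sterol enzymes with a mean under 25 CPM, a level chosen after the values were seen, and 48.6% of all genes tested from the lowest member to 25 CPM showed such a gap. None of the 9 sterol enzymes above that level did, against 8.17% of all genes tested from there to the highest member. Every control gene and fatty acid enzyme also lay above it, from 36.3 and 26.7 CPM upward, so their counts of 0 of 6 belong beside this share. Across the 30 members, which share the same libraries, Spearman's rho between mean CPM and the wider replicate gap was -0.48. The gaps of the sterol enzymes went both ways: control replicate 2 was the higher for 10 of 18 and cKO replicate 2 for 6 of 18. These counts were 5 of 6 and 3 of 6 for the fatty acid enzymes, and 4 of 6 and 3 of 6 for the control genes. Over all 17349 genes tested they were 10101 and 8815. The median SE of the log2 fold change was 0.44 for the sterol enzymes. It was 0.22 for the fatty acid enzymes and 0.22 for the control genes. All genes tested had a median SE of 0.55, and those within the members' range of mean levels had 0.36.

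Neighbouring genes of lipid handling, from a list that excludes the members, also had estimates in both directions. Of 21 other sterol genes tested 9 had higher and 12 lower estimates, and of 21 other fatty acid genes 10 were higher and 11 lower, with 0 of 42 past the threshold by edgeR (0.0576% of all genes tested) and 3 at an unadjusted p under 0.05 (7.04% of all genes tested). The medians were -0.06 and -0.05. Abcg1, a sterol exporter, had -0.91 (SE 0.24, adjusted p = 0.529 by edgeR) with both cKO libraries lower. Ggps1, which branches off the isoprenoid pathway to geranylgeranyl diphosphate, had 1.05 (SE 0.37), and Mbtps1, the protease that makes the first cut in SREBPs, had -0.44 (SE 0.20). Among fatty acid genes Mlxipl, for the glucose-sensing activator ChREBP, had 1.11 (SE 0.33, adjusted p = 0.591 by edgeR) with both cKO libraries higher. Mcat had -1.74 (SE 0.76) and the elongase gene Elovl1 had 0.70 (SE 0.37).

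**Figure D4:**
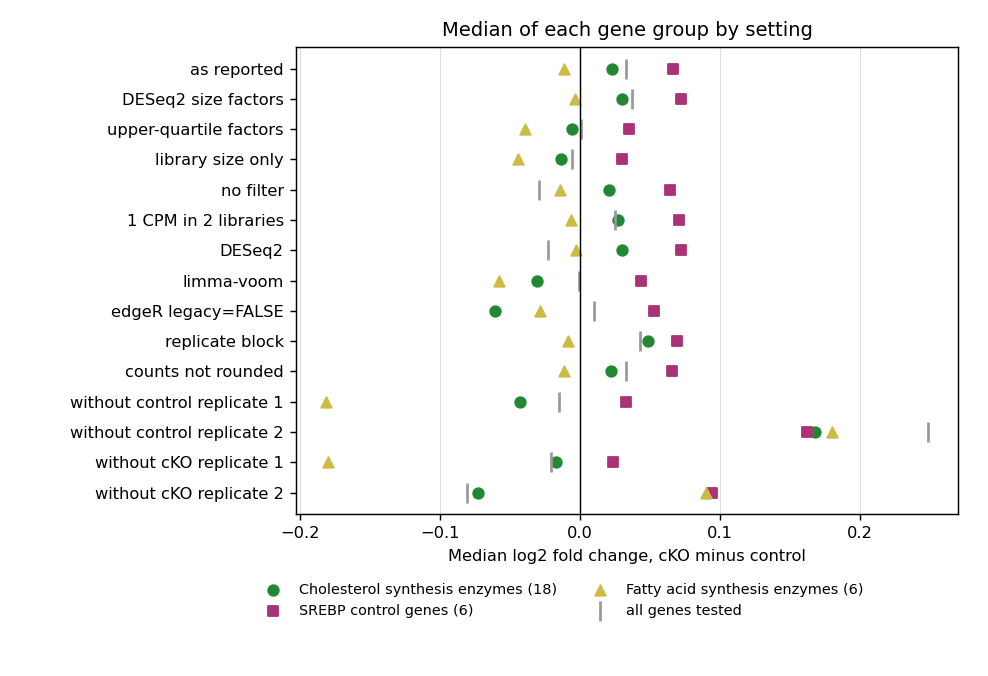
Median log2 fold change (x axis) of the 18 sterol enzymes, 6 SREBP control genes and 6 fatty acid enzymes, with that of all genes tested, under each setting (y axis). The medians of the 3 gene groups stay within 0.2 of 0, and leaving out control replicate 2 moves all 3 groups and the median of all genes (0.25) upward together.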

How the data were processed

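The submitters' processing notes name STAR 2.5.1b, featureCounts 1.5.0-p1 and the mm10 build. The sources used here do not give the annotation release, strand setting or handling of shared reads. The deposited values are estimated counts, not scaled between libraries, and 13.4% of the values above 0 were not whole numbers (more than 1e-06 from one). Names, positions and exonic lengths came from GENCODE M21, which shares the build and matched 54495 identifiers without version. Counts were rounded, filtered with filterByExpr (minimum count 10, minimum total 15), scaled with TMM and tested with edgeR 4.0.16 (R 4.3.3), two-sided, Benjamini-Hochberg adjusted over 17349 genes, with group as the only term. The SE is the log2 fold change divided by the square root of F, and intervals are 95%. Copies of members were sought with blastn 2.17.0 among annotated transcripts (at least 500 bases at 95% identity). DESeq2 1.42.0, limma 3.58.1, other scalings and filters, unrounded counts, a replicate block and left-out libraries were alternatives. The tests were first tried on simulated data. All 30 members were named, with full statistics for those at an unadjusted p under 0.05 and for Dhcr7, added after its values were seen. Of the other lipid genes the 3 with the smallest p per list were named. The members, lists, motifs and tests were chosen with earlier results of these data known. The 30 genes are not the whole of either pathway. Same-numbered replicates did not deviate together (correlation of deviations 0.0098 across genes) and nothing in the labels pairs them. The result of 1 of the 13 marker lists is not reported here.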

Additional observations from a re-analysis of the deposited data

How the results depend on the processing

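The count of 0 members past the threshold became 2 with DESeq2 (Insig1 and Acly) and ranged from 0 to 1 with 1 library left out. The 1 was Hsd17b7 without control replicate 2, when its remaining control library had 0 counts; 3.5% of genes were called in that fit, and the median of all genes moved to 0.25. It stayed 0 in the other fits of the whole table. The median log2 fold change of the sterol enzymes ran from -0.073 to 0.17, that of the fatty acid enzymes from -0.18 to 0.18 and that of the SREBP control genes from 0.024 to 0.16 with 1 library left out. The replicate block gave 0 members, a sterol median of 0.05, and 0.28 for Acat2 and 0.037 for Hmgcs1, against -0.27 and -0.0041. Among 300 estimates for single members in fits on all libraries, 10 changed sign, each smaller than its SE: Acat2 and Hmgcs1 under the block, Hmgcs1 at 0.00083 with 1 CPM in 2 libraries, 0.0051 with DESeq2 and 0.0049 with its size factors, Ebp at -0.012 and Scd1 at -0.017 with limma-voom, Scd1 at -0.0098 with library size only and -0.0059 with upper-quartile factors, and Tm7sf2 at -0.062 with the newer edgeR test. With 1 library left out 19 members changed sign at least once, over ranges of -1.10 to 1.92 (Acat2), -0.52 to 0.62 (Ebp), -0.031 to 0.22 (Elovl6), -0.32 to 0.28 (Fasn), -0.080 to 0.16 (Fdft1), -2.81 to 0.67 (Fdps), -0.33 to 0.42 (Hmgcs1), -0.26 to 0.98 (Idi1), -0.16 to 0.25 (Lss), -0.19 to 0.81 (Mvd), -1.49 to 0.059 (Mvk), -0.33 to 0.030 (Scap), -0.18 to 0.19 (Scd1), -0.41 to 0.14 (Scd2), -0.46 to 0.29 (Sqle), -0.13 to 0.044 (Srebf1), -0.082 to 0.21 (Srebf2), -0.014 to 0.14 (Stard4) and -0.57 to 1.88 (Tm7sf2). The cause was not tested. Where a genotype was left with a single library, the fit took its spread from the other genotype. Over all genes tested, 10 passed by edgeR, 3 with the 1 CPM filter, 47 with the newer test, 253 with no filter, 256 with limma-voom, 856 with DESeq2 and 66 to 681 with 1 library left out.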
